A study of Mus musculus with 12 samples.

Results

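The respiratory chain of the mitochondrial inner membrane is built from subunits that are mostly encoded in the nucleus, and the mRNAs of 77 of these nuclear genes are described here in mouse liver. They were taken from 51912 gene identifiers of the count table by symbol: the Nduf genes of complex I, the Sdh genes of complex II, the Uqcr genes and Cyc1 of complex III, the Cox4 to Cox8 genes of complex IV and the Atp5 genes of complex V. Of 96 matching symbols, 7 that name pseudogenes and 4 that are not annotated as protein-coding were left out, and 8 fell below a mean of 1 CPM (counts per 1000000 counts of the library) over the 12 libraries. The members numbered 36 in complex I, 4 in complex II, 9 in complex III, 11 in complex IV and 17 in complex V. In this rule measured values enter only through the minimum level.

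Complexes I and II pass electrons from NADH and from succinate to ubiquinone, complex III passes them to cytochrome c and complex IV to oxygen, and the proton gradient that complexes I, III and IV build drives ATP synthesis by complex V. Liver relies on this chain to reoxidise the carriers reduced by fatty acid oxidation and the tricarboxylic acid (TCA) cycle. All complexes except complex II also contain subunits made from mitochondrial DNA. The 13 protein-coding mitochondrial genes were listed at 0 counts in every library, so the files give no value for that side of the chain.

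Livers were taken from wild-type mice and from Mlkl-/- mice, which lack the pseudokinase that executes necroptosis. The mice began the diets at 8 to 9 weeks of age. The control diet was normal chow (ND), and the high-fat diet (HFD) held 36% fat, which supplied 59% of its energy as lipid. The sample labels give 25 weeks of diet and the series text 16 to 25 weeks, and the livers sequenced came from fed animals picked by mean organ weight. Each of the 4 groups (wild-type ND, wild-type HFD, Mlkl-/- ND, Mlkl-/- HFD) held 3 libraries, each with its own animal number. The sources used here do not give the strain, the sex or how the Mlkl allele was made. The titles also carry a code with a lower level (23 on ND, 25 on HFD) and a higher level (27 and 29) whose meaning is not given. It splits every group, with 2 libraries at one level and 1 at the other.

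The 12 libraries of 3' mRNA tags held 19435391 to 32120426 counts, of which the members took 0.723% to 1.01%. Mlkl itself had 72 to 252 counts in the wild-type libraries and 9 to 34 in the Mlkl-/- libraries. All 8 hepatocyte markers were found in each group, at summed levels of 58820 to 112700 CPM. A single library, Mlkl-/- HFD replicate 2, stood apart with 6320 counts of 6 muscle genes (Acta1, Ckm, Myh1, Myh4, Myh6 and Tnnt3), against 35 to 180 in the other 11 libraries. The summed level of 8 small-RNA and neighbouring loci also differed between libraries, at 3484 to 9239 CPM in the 3 Mlkl-/- HFD libraries, replicates 2 and 3 of wild-type HFD and replicate 1 of Mlkl-/- ND, and at 378 to 656 CPM in the other 6.

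On HFD, most subunit mRNAs of wild-type liver were lower than on ND, by small amounts. Of the 77 members, 68 had a lower and 9 a higher estimate, and the median log2 fold change was -0.30, against -0.01 over the 18098 genes tested. The test was passed by 3 members, which fell: Atp5l and Atp5j2, which encode subunits g and f of the membrane part of ATP synthase, and Cox5b, a zinc-binding subunit of cytochrome c oxidase. These 3 were 3.9% of the members, while 4.23% of all genes passed in either direction and 2.21% passed as lower, so the share that passed was near the background. In the libraries themselves, 39 members (50.6%) had all 3 HFD values below all 3 ND values, as had 15.2% of all genes, and 3 members had them all above, as had 14.0% of all genes. An unadjusted p under 0.05 was reached by 34 members (44.2%) and by 20.5% of all genes.

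These values are relative to the other genes, and their size depended on how the libraries were scaled. With library size alone in place of TMM factors the median of all genes moved from -0.01 to 0.19, the median of the members to -0.11, 48 members stayed lower and none passed. On that scale 1102 of all genes passed, against 766 with TMM factors. The members' median lay 0.29 below that of all genes under either scaling. A new scale shifts all genes of a comparison by nearly the same amount, so this difference cannot tell the scales apart. As a share of raw counts, the members of wild-type mice took 0.903%, 0.945% and 0.848% on ND and 0.935%, 0.982% and 0.863% on HFD, so their summed raw share overlapped between the diets.

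Levels of Atp5l were 90.0, 93.7 and 102 CPM in wild-type ND, 67.2, 64.0 and 58.3 in wild-type HFD, 95.0, 87.2 and 69.8 in Mlkl-/- ND and 89.0, 93.9 and 73.1 in Mlkl-/- HFD libraries. All HFD values of wild-type mice lay below every other value in the study. Its log2 fold change on HFD was -0.59 ± 0.14 (SE), with an edgeR adjusted p of 0.0323. For Atp5j2 the libraries gave 100.5, 126 and 109.6 CPM (wild-type ND), 80.9, 72.8 and 61.1 (wild-type HFD), 98.8, 99.4 and 77.1 (Mlkl-/- ND) and 108, 113 and 82.3 (Mlkl-/- HFD). The wild-type groups did not overlap, and replicate 3 was the lowest library of both Mlkl-/- groups. Atp5j2 changed by -0.65 ± 0.16 (SE), with an edgeR adjusted p of 0.0378. Cox5b stood at 101, 113 and 99.4 CPM in wild-type mice on ND and 72.8, 77.4 and 60.2 on HFD, and at 90.8, 86.5 and 71.3 in Mlkl-/- mice on ND and 96.1, 101 and 76.5 on HFD. Here too the wild-type groups were apart, and the Mlkl-/- groups overlapped each other. The change of Cox5b was -0.58 ± 0.15 (SE), with an edgeR adjusted p of 0.0431. All 3 calls were lost when any 1 of the 6 wild-type libraries, or Mlkl-/- ND replicate 2, was left out, and when the model had a term for the 8-locus level. Over all genes 63 to 546 passed in these fits, against 766 in the main fit. In these alternatives the log2 fold changes lay between -0.64 and -0.53 for Atp5l, between -0.74 and -0.53 for Atp5j2 and between -0.65 and -0.48 for Cox5b, with values of -0.62, -0.60 and -0.60 under the 8-locus term.

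**Figure D1:**
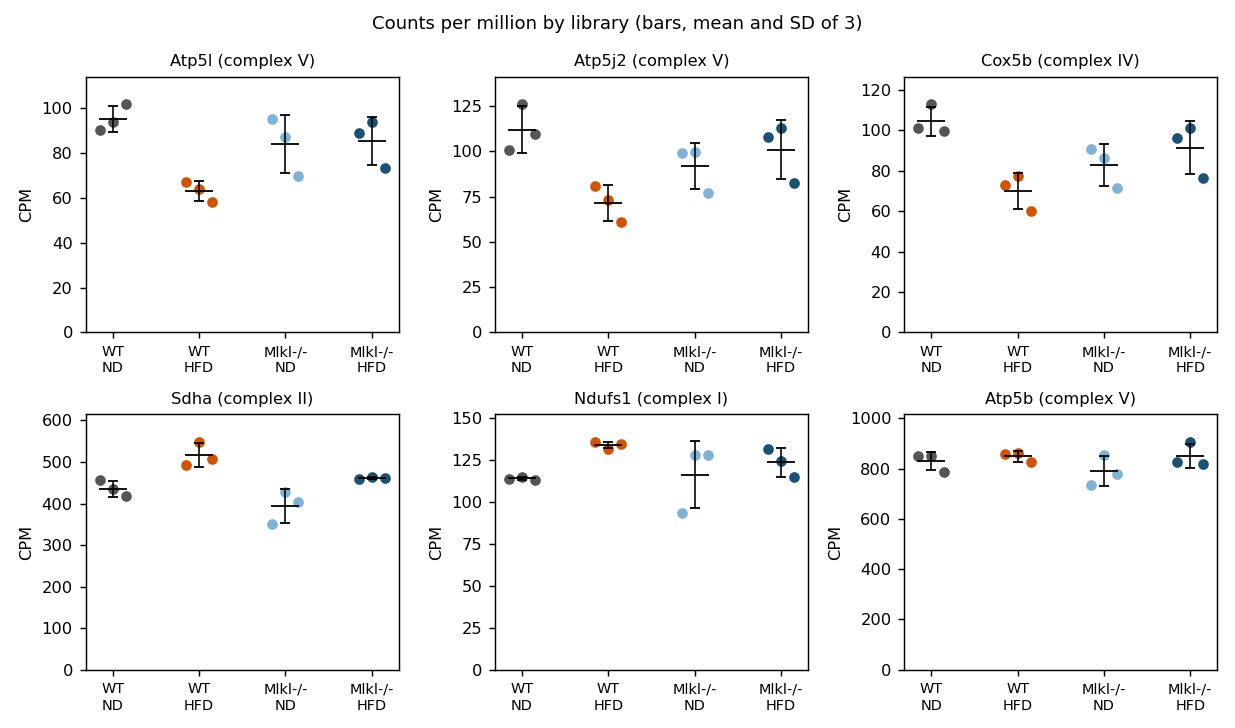
TMM-scaled CPM (linear axis from 0) of 6 members in each library, with the mean and SD of the 3 libraries of a group. In wild-type (WT) mice the HFD points of Atp5l, Atp5j2 and Cox5b lie below the ND points, those of Sdha and Ndufs1 lie above them, and those of Atp5b overlap them.

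Reads of Atp5l may be shared with its copies. The pseudogenes Atp5l-ps1 and Atp5l2-ps had log2 fold changes of -0.75 and -0.60 in the same comparison (adjusted p = 0.0153 and 0.0456, edgeR), so the value of Atp5l is uncertain to the extent that the authors' counting split reads between them. With the counts of such copies added to their members, Atp5l, Atp5j2 and Cox5b passed and Uqcrh, the hinge protein of complex III, passed as well.

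Stretches upstream of the transcription start placed by RefSeq are shown for 2 of these genes and for Sdha. Sdha encodes the flavoprotein of complex II and was the member with the highest estimate in wild-type mice. The stretches are shown because letters found in part of the members' windows, which the selection did not use, are more frequent there than over all genes. Bases are 5' to 3' on the gene's strand, from RefSeq on GRCm38.p6, and capitals mark a match on either strand to NRF1 (GCGCANGCG) or ETS/GABPA (CCGGAAG), the letters bound by 2 known regulators of respiratory genes.
Atp5l, chr9:44920743-44920992, minus strand: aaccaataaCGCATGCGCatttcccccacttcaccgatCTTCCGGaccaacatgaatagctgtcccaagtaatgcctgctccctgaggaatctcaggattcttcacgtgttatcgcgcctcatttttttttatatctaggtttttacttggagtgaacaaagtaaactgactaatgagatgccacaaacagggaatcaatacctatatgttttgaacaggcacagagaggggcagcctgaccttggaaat
Cox5b, chr1:36691237-36691486, plus strand: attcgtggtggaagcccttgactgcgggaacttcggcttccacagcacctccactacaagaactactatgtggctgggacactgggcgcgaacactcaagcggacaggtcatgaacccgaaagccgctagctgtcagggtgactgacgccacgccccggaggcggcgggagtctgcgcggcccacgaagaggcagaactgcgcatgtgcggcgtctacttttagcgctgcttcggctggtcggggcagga
Sdha, chr13:74350241-74350490, minus strand: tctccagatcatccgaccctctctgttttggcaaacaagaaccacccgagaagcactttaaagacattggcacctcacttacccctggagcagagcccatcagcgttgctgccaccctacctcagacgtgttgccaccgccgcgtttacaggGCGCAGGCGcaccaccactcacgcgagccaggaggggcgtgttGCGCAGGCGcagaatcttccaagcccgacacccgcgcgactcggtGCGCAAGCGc
Atp5l held 1 match to each motif, Sdha held 3 to NRF1, and the window of Cox5b held neither. In the GENCODE annotation Cox5b begins at 36691449 and Sdha at 74350280, within the stretches shown. Their last bases, with the last match of Sdha, thus lie inside these genes by that annotation. The window of Atp5j2, which also held neither, is not printed, since its end was not found in any annotated transcript of the gene. In windows of 300 bases around the start, NRF1 letters were found in 20 of the 64 members with a window (31.2%) and in 1901 of 27025 genes (7.03%). ETS letters were found in 16 members (25.0%) and in 9.93% of genes, and YY1 letters (AAGATGGC) in 10 members (15.6%) and in 3.19% of genes. At least 1 of the 3 motifs was present in 38 members (59.4%) and in 17.8% of genes. These genes were not limited to those expressed in liver or to protein-coding ones, while all members are both. Whether other expressed protein-coding genes have such shares was not tested. Members with a low and with a high estimate both carried matches, and no match says only that these letters are absent from the window.

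In complex I, 32 of the 36 members had a lower estimate in wild-type mice on HFD and none passed the test. The median was -0.30, with 19 members (52.8%) below ND in all libraries and 2 above. The 29 accessory subunits, which surround the catalytic core, had a median of -0.30, and the 7 core subunits measured here one of -0.19. Estimates ran from -0.64 for Ndufb7, an accessory subunit of the membrane arm, to 0.23 for Ndufs1, the large iron-sulfur subunit that takes part in NADH oxidation. Ndufa1, Ndufb4 and Ndufb11, 3 more accessory subunits of the membrane arm, stood at -0.62, -0.52 and -0.43, with adjusted p of 0.0717, 0.077 and 0.0836 (edgeR). Ndufb7, Ndufa1 and Ndufb11 passed with DESeq2, with adjusted p of 0.0436, 0.0431 and 0.0427. DESeq2 called more genes in general in this comparison, 1465 of 18098 against 766 in the main fit.

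Levels of Ndufs1 were 114, 115 and 113 CPM in wild-type ND, 136, 132 and 134 in wild-type HFD, 93.2, 128 and 128 in Mlkl-/- ND and 131, 124 and 114 in Mlkl-/- HFD libraries. Its wild-type HFD values were above all wild-type ND values, and the Mlkl-/- groups overlapped. For Ndufv1 the libraries gave 117, 118 and 104 CPM (wild-type ND), 108, 119.7 and 120.2 (wild-type HFD), 122, 112 and 98.6 (Mlkl-/- ND) and 118, 126 and 113 (Mlkl-/- HFD). This subunit binds the flavin that takes the electrons from NADH, and its groups all overlapped. Ndufv2 stood at 75.1, 88.2 and 87.6 CPM in wild-type mice on ND and 66.9, 63.4 and 60.5 on HFD, and at 75.3, 87.3 and 73.3 in Mlkl-/- mice on ND and 95.3, 87.1 and 67.2 on HFD. Ndufv2, an iron-sulfur partner of Ndufv1, was lower in all wild-type HFD libraries than in any wild-type ND library, at -0.39. Levels of Ndufs3 were 64.0, 78.9 and 68.0 CPM in wild-type ND, 59.7, 58.7 and 66.1 in wild-type HFD, 77.2, 64.0 and 57.7 in Mlkl-/- ND and 83.2, 86.4 and 59.3 in Mlkl-/- HFD libraries. For Ndufs7 the libraries gave 46.1, 50.2 and 35.5 CPM (wild-type ND), 40.1, 36.4 and 39.1 (wild-type HFD), 62.0, 38.3 and 36.9 (Mlkl-/- ND) and 57.4, 63.9 and 39.2 (Mlkl-/- HFD). Ndufs3 and Ndufs7, which sit in the arm that leads to ubiquinone, overlapped between diets in both genotypes. Ndufs8 stood at 54.9, 54.6 and 54.5 CPM in wild-type mice on ND and 43.8, 39.8 and 44.1 on HFD, and at 50.3, 52.1 and 46.0 in Mlkl-/- mice on ND and 60.5, 52.2 and 39.9 on HFD. This core subunit, an iron-sulfur protein, had apart wild-type groups, at -0.36. Ndufs1 and Ndufv1 thus had higher estimates on HFD in wild-type mice, Ndufv2, Ndufs3, Ndufs7 and Ndufs8 had lower ones, and no core subunit passed.

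Complex II, which is also an enzyme of the TCA cycle, differed from the other complexes in its median of -0.07, a difference that was not tested. Levels of Sdha were 456, 434 and 418 CPM in wild-type ND, 493, 548 and 508 in wild-type HFD, 349.8, 429 and 404 in Mlkl-/- ND and 458, 463 and 462 in Mlkl-/- HFD libraries. In wild-type mice all HFD values of Sdha exceeded the ND values, at 0.25 ± 0.13 (SE), with an edgeR adjusted p of 0.316, which did not pass. For Sdhb the libraries gave 148, 180.3 and 158 CPM (wild-type ND), 153, 135 and 139 (wild-type HFD), 146, 162 and 131 (Mlkl-/- ND) and 184, 177 and 131 (Mlkl-/- HFD). Sdhc stood at 110.1, 128 and 126 CPM in wild-type mice on ND and 111, 115 and 119 on HFD, and at 138, 115 and 100.5 in Mlkl-/- mice on ND and 148, 139.7 and 111 on HFD. Levels of Sdhd were 179, 182 and 168 CPM in wild-type ND, 172, 156 and 181 in wild-type HFD, 150.0, 178 and 158 in Mlkl-/- ND and 183, 202 and 161 in Mlkl-/- HFD libraries. For the iron-sulfur subunit Sdhb and the membrane anchors Sdhc and Sdhd the groups overlapped, with estimates of -0.19, -0.08 and -0.06. With library size alone as the scale the complex II median turned to 0.13 and Sdhb to 0.00.

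In complex III, 8 of the 9 members had a lower estimate in wild-type mice on HFD and the median was -0.35. The 5 small subunits Uqcrh, Uqcr11, Uqcrb, Uqcr10 and Uqcrq were each apart between diets, at -0.57, -0.52, -0.44, -0.41 and -0.35. Uqcrh just missed the threshold (adjusted p = 0.0506, edgeR) and passed with DESeq2 (adjusted p = 0.0176). For Uqcrh the libraries gave 95.9, 118 and 128 CPM (wild-type ND), 81.2, 77.2 and 71.5 (wild-type HFD), 111, 109.6 and 88.8 (Mlkl-/- ND) and 98.4, 116 and 83.5 (Mlkl-/- HFD). Wild-type HFD libraries held the 3 lowest values of Uqcrh. The 4 larger subunits, among them the redox carriers, overlapped between diets.
Cyc1 stood at 131, 132 and 100.4 CPM in wild-type mice on ND and 109, 113 and 129 on HFD, and at 142, 109 and 100.5 in Mlkl-/- mice on ND and 159.5, 160.2 and 115 on HFD. Levels of Uqcrfs1 were 208, 225 and 197 CPM in wild-type ND, 208, 186 and 177 in wild-type HFD, 195, 205 and 187 in Mlkl-/- ND and 246, 224 and 174 in Mlkl-/- HFD libraries. Cytochrome c1 (Cyc1) and the Rieske iron-sulfur protein (Uqcrfs1) had estimates of -0.05 and -0.14. For Uqcrc1 the libraries gave 174, 192 and 149.7 CPM (wild-type ND), 180.0, 188 and 190.0 (wild-type HFD), 201, 166 and 146 (Mlkl-/- ND) and 233, 237 and 179 (Mlkl-/- HFD). Uqcrc2 stood at 235, 236 and 239.9 CPM in wild-type mice on ND and 242, 222 and 233 on HFD, and at 196, 256 and 217 in Mlkl-/- mice on ND and 263, 243 and 214 on HFD. For the core proteins Uqcrc1 and Uqcrc2 they were 0.11 and -0.03, and none of these 4 passed.

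In complex IV all 11 members had a lower estimate, with a median of -0.39, and Cox5b alone passed. The range ran from Cox5b to -0.05 for Cox7a2l, which helps to assemble complexes III and IV into supercomplexes. Cox7a2l turned to 0.14 when library size alone set the scale. Levels of Cox4i1 were 224, 258 and 215 CPM in wild-type ND, 199, 217 and 197 in wild-type HFD, 278, 199 and 187 in Mlkl-/- ND and 268, 265 and 220.2 in Mlkl-/- HFD libraries. For Cox5a the libraries gave 106, 124 and 105 CPM (wild-type ND), 107, 107 and 105 (wild-type HFD), 135, 104 and 85.3 (Mlkl-/- ND) and 131, 138 and 104 (Mlkl-/- HFD). Cox4i1 and Cox5a, which contact the catalytic subunits made in the mitochondrion, overlapped between wild-type diets, at -0.19 and -0.07. Cox6c stood at 103, 129 and 153 CPM in wild-type mice on ND and 86.3, 101 and 85.5 on HFD, and at 117, 112 and 92.2 in Mlkl-/- mice on ND and 141, 127 and 103 on HFD. Levels of Cox7c were 119.8, 122 and 126 CPM in wild-type ND, 86.5, 96.1 and 68.3 in wild-type HFD, 113, 108 and 72.0 in Mlkl-/- ND and 106, 106 and 78.0 in Mlkl-/- HFD libraries. The small membrane-spanning subunits Cox6c and Cox7c were apart, at -0.50 and -0.55 (adjusted p = 0.111 and 0.103, edgeR).

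The complex IV subunits known from muscle, testis or lung were near the detection limit, which bears on the label of the tissue. Cox7b2 and Cox8c had 0 counts in all libraries, Cox4i2 had 0 to 7, and Cox6b2 0 to 6. The heart and muscle forms Cox6a2 and Cox8b had 66 and 17 counts in Mlkl-/- HFD replicate 2, the library with muscle genes, and 0 to 3 in each of the other 11. Cox7a1, another muscle form, had 35 counts there and 6 to 29 elsewhere. Just outside the minimum level were Ndufa4l2, a relative of Ndufa4, with a mean of 0.908 CPM, Cox7a1 with 0.672 CPM and Cox6a2 with 0.29 CPM. Just inside it were Atp5s with 5.5, Atp5k with 14.2 and Ndufa3 with 16.6 CPM, all on the scale of raw library size. The symbol rule places Ndufa4 in complex I, although its protein is now counted as a subunit of complex IV. In wild-type mice on HFD Ndufa4 stood at -0.47, and its wild-type groups were apart.

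In complex V 14 of the 17 members had a lower estimate, with a median of -0.35, and Atp5l and Atp5j2 passed. Atp5k, the third member of their group of small membrane subunits, had -0.64 with a larger SE of 0.24. The peripheral stalk subunits Atp5o, Atp5h, Atp5j and Atp5f1, which hold the catalytic head still, stood at -0.48, -0.38, -0.38 and -0.07. The proton-carrying ring is encoded by Atp5g1, Atp5g2 and Atp5g3, whose estimates were -0.27, -0.35 and 0.01.
For Atp5a1 the libraries gave 824, 788 and 694 CPM (wild-type ND), 824, 833 and 823 (wild-type HFD), 749, 783 and 678 (Mlkl-/- ND) and 811, 852 and 723 (Mlkl-/- HFD). Atp5b stood at 849.5, 849 and 787 CPM in wild-type mice on ND and 857, 863 and 824 on HFD, and at 736, 856 and 778 in Mlkl-/- mice on ND and 828, 906 and 816 on HFD. The alpha and beta subunits of the catalytic head (Atp5a1, Atp5b) overlapped between diets in both genotypes, with estimates of 0.11 and 0.03 in wild-type mice. Levels of Atp5c1 were 207, 240.1 and 236 CPM in wild-type ND, 204, 198 and 212 in wild-type HFD, 214, 231 and 202 in Mlkl-/- ND and 242, 248 and 199 in Mlkl-/- HFD libraries. The gamma subunit that turns inside the head (Atp5c1) had -0.16 and overlapped too.

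Across the members, the estimate in wild-type mice ran with the length of the coding sequence. Over 77 genes measured in the same libraries the correlation of log2 coding length with the log2 fold change was 0.70 (Pearson) and 0.65 (Spearman). It is given as a description, since genes are not independent replicates. Of the 39 members with at most 429 coding nucleotides, 38 had a lower estimate (median -0.41), and of the 38 longer ones 30 (median -0.16). Within complexes the Pearson value was 0.54 in complex I, 0.94 in complex III, 0.60 in complex IV and 0.78 in complex V, over 36, 9, 11 and 17 members. Over the 13160 protein-coding genes that were neither members nor cytosolic ribosomal proteins it was 0.08, and over 77 cytosolic ribosomal proteins it was 0.45 (Spearman 0.54). Of the 13160, the 839 with at most 429 nucleotides had a median of -0.11, with 61.4% lower. In Mlkl-/- mice the value over the members was 0.15. Whether length itself or another property of short mRNAs moved with the diet was not tested.

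**Figure D2:**
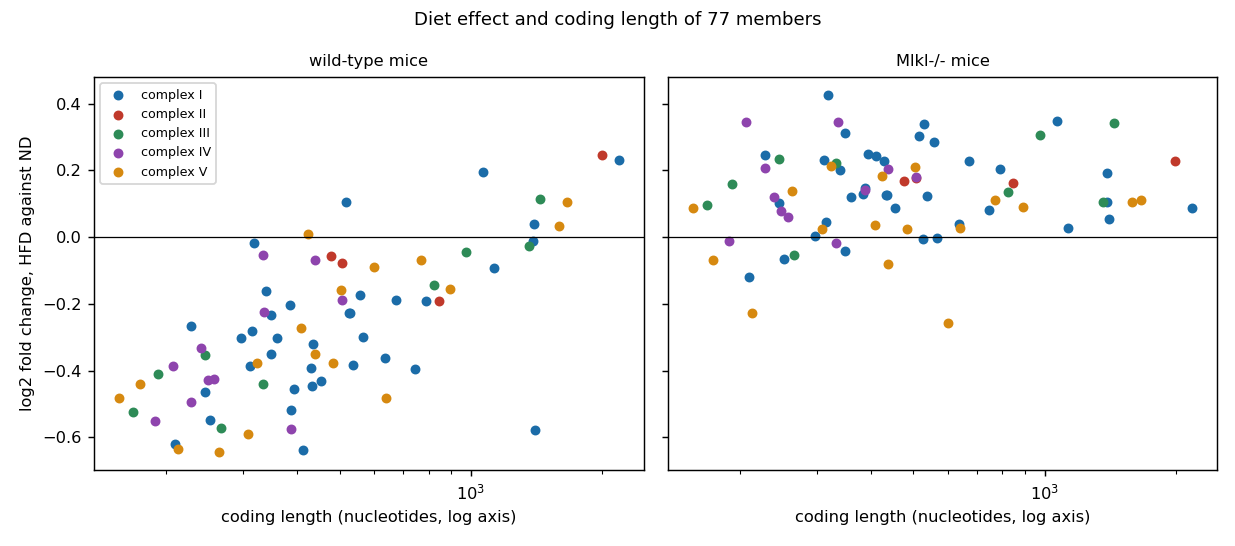
Log2 fold change on HFD of the 77 members against coding length (nucleotides, log axis), in wild-type and in Mlkl-/- mice, coloured by complex. In wild-type mice the median is -0.41 at up to 429 nucleotides and -0.16 for the longer members, of which 30 of 38 lie below 0. In Mlkl-/- mice most points lie above 0 at all lengths.

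In Mlkl-/- liver the estimates pointed the other way and none passed. HFD values were higher for 65 members and lower for 12, with a median of 0.13 against -0.02 over all genes, and 0.359% of all genes passed. The smallest adjusted p was 0.247, for Ndufa10, an accessory subunit of complex I (log2 fold change 0.35 ± 0.13 SE, edgeR). An unadjusted p under 0.05 was reached by 4 members (5.19%) and by 13.6% of all genes. The 4 were Ndufs5, an accessory subunit of complex I, at 0.43, Ndufa10, Cox8a, a small subunit of complex IV, at 0.35, and Uqcrc1 at 0.34. Of the members 2.6%, Sdha among them, were higher in all HFD than in all ND libraries, beside 8.02% of all genes, and no member was lower in all, beside 7.49% of all genes. Without the library with muscle genes the median was 0.09, with 58 members higher. Over the 6 Mlkl-/- libraries left out in turn it was lowest without ND replicate 3 (0.06, 50 higher) and highest without HFD replicate 3 (0.25, 72 higher).

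By complex, the medians in Mlkl-/- mice were 0.13 (I), 0.17 (II), 0.16 (III), 0.14 (IV) and 0.09 (V). The lowest and highest estimates were -0.12 (Ndufa1) and 0.43 (Ndufs5) in complex I and 0.16 (Sdhb) and 0.23 (Sdha) in complex II. They were -0.05 (Uqcrh) and 0.34 (Uqcrc1) in complex III, -0.02 (Cox7a2l) and 0.35 (Cox8a) in complex IV, and -0.26 (Atp5s, coupling factor B) and 0.21 (Atp5j) in complex V. With library size as the scale Uqcrh and Cox7a2l turned to 0.02 and 0.06. For Ndufa10 the libraries gave 95.0, 101 and 96.8 CPM (wild-type ND), 115, 112 and 109 (wild-type HFD), 104, 89.2 and 87.1 (Mlkl-/- ND) and 124, 130.4 and 102 (Mlkl-/- HFD). Cox8a stood at 159.6, 168 and 146 CPM in wild-type mice on ND and 125, 128 and 110.1 on HFD, and at 139.9, 129 and 101 in Mlkl-/- mice on ND and 165, 174 and 132 on HFD. Both were lowest, among the Mlkl-/- libraries, in ND replicate 3. Levels of Ndufs5 were 39.8, 41.8 and 36.9 CPM in wild-type ND, 37.8, 41.5 and 37.6 in wild-type HFD, 46.0, 28.8 and 27.8 in Mlkl-/- ND and 52.1, 49.7 and 36.0 in Mlkl-/- HFD libraries. Ndufs5 was high in Mlkl-/- ND replicate 1, and without that library its HFD value was higher by 0.72 and passed (adjusted p = 0.0273, edgeR). It was the only member to pass in that fit, in which 729 of 18590 genes passed, against 65 in the main fit.

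**Figure D3:**
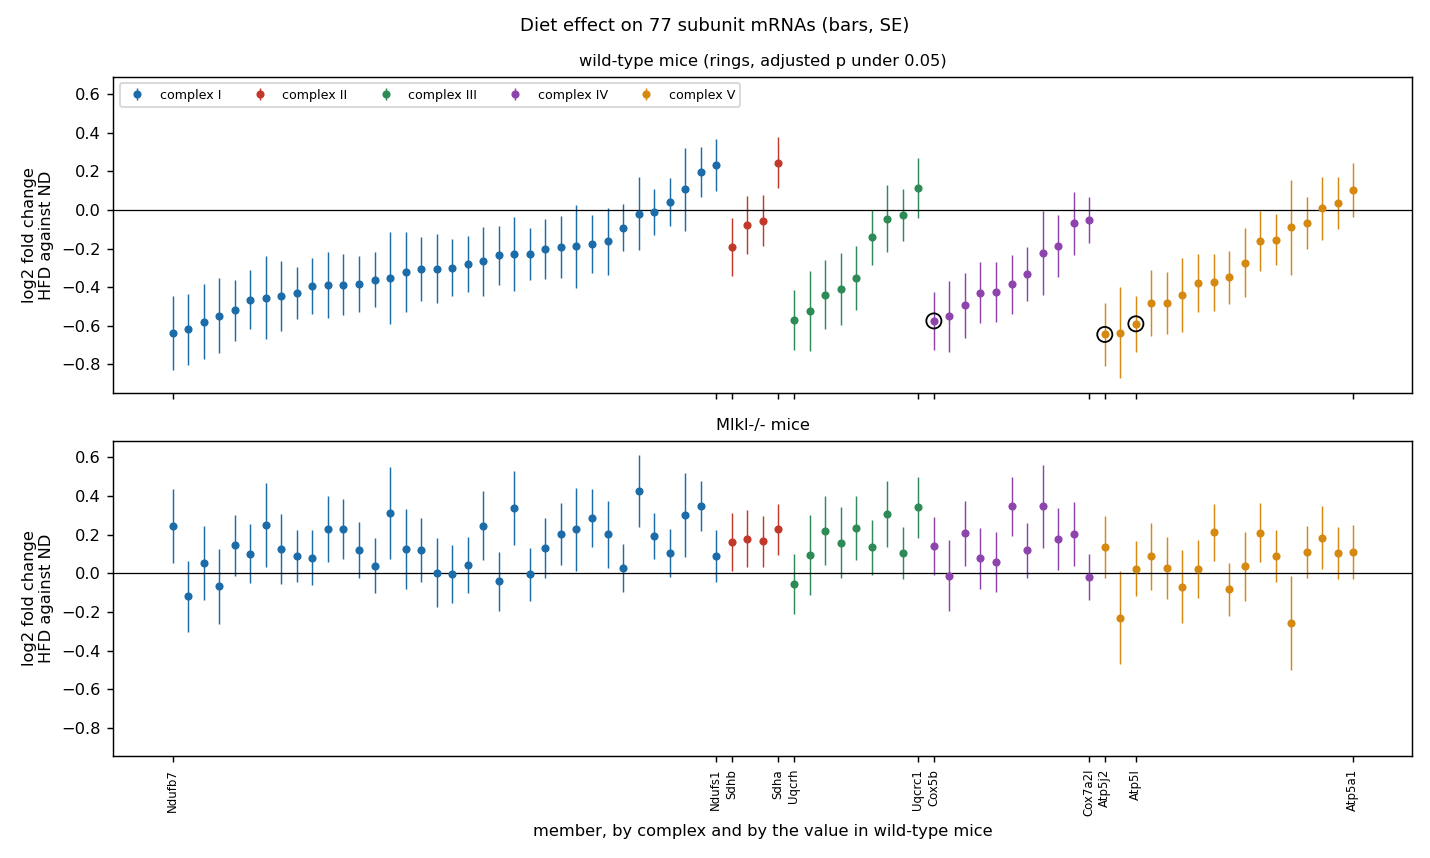
Log2 fold change of HFD against ND with its SE for each of the 77 members, grouped by complex and ordered by the wild-type value, in wild-type (top) and Mlkl-/- mice (bottom). In wild-type mice 68 points lie below 0, and the 3 ringed ones (Cox5b, Atp5j2, Atp5l) passed; in Mlkl-/- mice 65 points lie above 0 and none passed. The members named on the axis are those that passed and the lowest and highest wild-type value of each complex.

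The libraries of a genotype and diet did not move as one. The median over members of a library's log2 CPM minus the member's own mean was 0.04, 0.22 and 0.06 in wild-type ND and -0.13, -0.12 and -0.24 in wild-type HFD. In the Mlkl-/- libraries it was 0.16, 0.02 and -0.27 on ND and 0.23, 0.23 and -0.14 on HFD. All wild-type HFD libraries were thus below all wild-type ND libraries. In each Mlkl-/- group replicate 3 was low and replicate 1 high, while replicate 2 was near 0 on ND and high on HFD. In Mlkl-/- ND replicate 3 and in Mlkl-/- HFD replicate 3 only 2 of the 77 members lay above their own mean, and in Mlkl-/- HFD replicate 2 76 did. Mlkl-/- HFD replicate 2 is the library with muscle genes, and replicate 1 of the same group, with 36 counts of those genes, had the same median of 0.23.

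**Figure D4:**
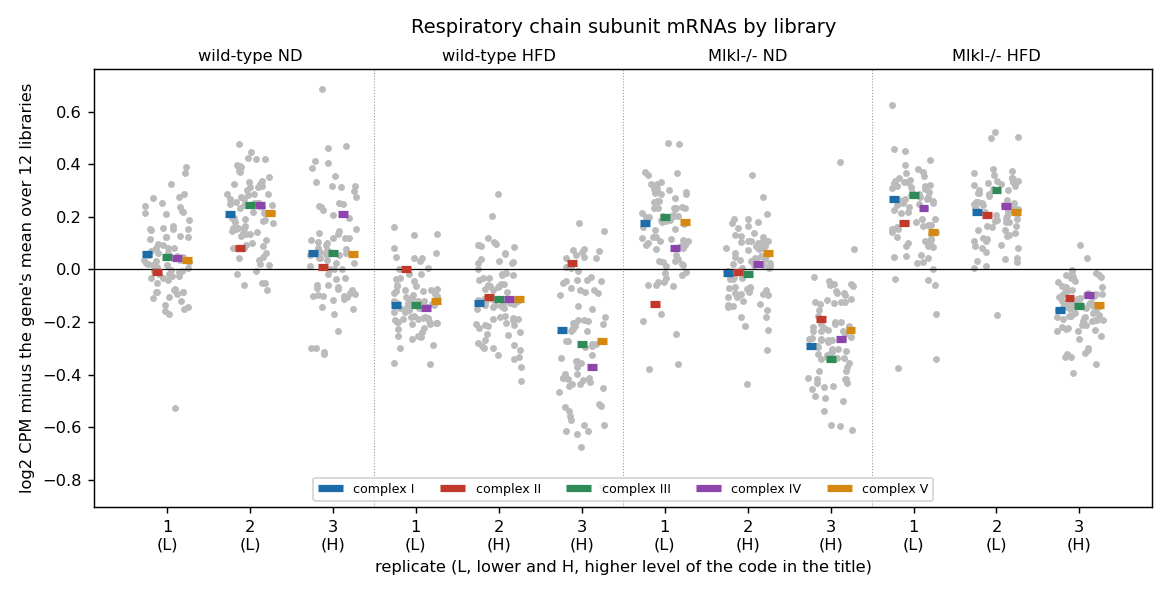
Log2 CPM of each member minus its mean over the 12 libraries (grey points, spread sideways to show them), with the median of each complex (coloured bars), by library and by the level of the code in the title. Replicate 3 of each Mlkl-/- group lies low (medians -0.27 and -0.14) and the other Mlkl-/- libraries at or above 0.02, and in Mlkl-/- ND replicate 1 complex II (-0.13) lies below 0 while the other complexes lie above it.

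The code in the titles divided the Mlkl-/- libraries. The higher level minus the lower gave a median over members of -0.28 on ND and -0.37 on HFD, where 74 of the 77 members were lower. In wild-type mice the same difference was -0.09 on either diet. Compared within the lower level, HFD minus ND was -0.27 in wild-type and 0.08 in Mlkl-/- mice, and within the higher level it was -0.25 and -0.03. Each of these rests on 1 library against 2, so no test was made. The direction in wild-type mice was the same at both levels, and that in Mlkl-/- mice was not.

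Comparing genotypes on ND, 70 of the members were lower in Mlkl-/- mice with a median of -0.14, none passed, and 0.00553% of all genes passed. An unadjusted p under 0.05 was reached by 2 members (2.6%) and by 5.51% of all genes. They were Cox8a, with a log2 fold change of -0.36 and an adjusted p of 0.848, and Cox5b, with -0.34 and an adjusted p of 0.867 (edgeR). Without Mlkl-/- ND replicate 3 the median was -0.05, with 54 members lower. Within the lower code level the median was -0.003, with 38 members higher and 39 lower. Within the higher level it was -0.18, with 65 members lower. Both values rest on 1 library against 2.

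On HFD, 73 members were higher in Mlkl-/- than in wild-type mice, with a median of 0.28 against 0.01 over all genes, and none passed, as 0.0276% of all genes did. In every Mlkl-/- library 18 members (23.4%) were higher, as were 10.6% of all genes, and Sdha and Ndufs1 (2.6%) were lower in every one, as were 10.8%. An unadjusted p under 0.05 was reached by 20 members (26.0%) and by 15.5% of all genes. The largest estimates were 0.57 for Ndufb7 (adjusted p = 0.205), 0.50 for Atp5j2 (adjusted p = 0.194) and 0.47 for Ndufa5 (adjusted p = 0.349), and the lowest was -0.16 for Sdha (edgeR). Within the lower code level the median was 0.37 and within the higher level 0.03. With library size alone as the scale it was 0.10, with 61 members higher, while the median of all genes moved to -0.16. Without the library with muscle genes it was 0.21, with 71 higher. Markers of several cell types also differed in this comparison, with values given beside those of the diet comparisons, and their part in it was not tested.

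The difference between the 2 diet effects, tested as an interaction, passed for none of the members, nor for any of the 18098 genes (0% of them). The estimate was positive, meaning a higher diet effect in Mlkl-/- mice, for 74 members with a median of 0.42, and the smallest adjusted p was 0.384. An unadjusted p under 0.05 was reached by 27 members (35.1%) and by 10.4% of all genes. The largest were 0.88 ± 0.27 (SE) for Ndufb7, 0.78 ± 0.23 for Atp5j2, 0.73 ± 0.21 for Cox8a and 0.72 ± 0.21 for Cox5b. The median was 0.28 with the code level as a term, and lay between 0.29 and 0.55 as each library was left out. Averaged over genotypes the diet changed none of the members by the test, while 7.19% of all genes passed. The members' median was -0.09, and an unadjusted p under 0.05 was reached by 10 members (13.0%) and by 22.0% of all genes. The lowest and highest estimates were -0.43 for Atp5k and 0.27 for Ndufa10, with adjusted p of 0.139 and 0.0848 (edgeR). With library size alone as the scale the averaged median turned to 0.05, and Ndufa10, Sdha and Uqcrc1 passed as higher. DESeq2 called Ndufa10 and Sdha in the averaged comparison, and neither DESeq2 nor limma-voom called a member in the Mlkl-/- diet, genotype or interaction comparisons.

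Markers of cell types differed in level in the same comparisons. In wild-type mice 7 of 8 hepatocyte markers had lower estimates on HFD, and their summed level lay between 105300 and 112700 CPM on ND and between 58820 and 84900 CPM on HFD. All 9 macrophage markers had higher estimates (132.5 to 171.9 CPM on ND, 219.6 to 307.5 CPM on HFD), as had all 7 stellate and fibroblast markers (163.7 to 197.0 and 158.5 to 351.6 CPM), all 6 endothelial markers (116.1 to 169.6 and 156.4 to 238.9 CPM) and all 5 adipocyte markers (16.4 to 30.0 and 96.8 to 150.9 CPM). Of these sums, those of the stellate and fibroblast markers and of the endothelial markers overlapped between the diets. The adipocyte sum was mostly Cidec, with a mean of 42.3 CPM over all libraries, and the next marker, Cfd, had 3.72 CPM. Which cells these counts came from was not tested. Lower estimates on HFD were found for 5 of 6 lymphocyte, 3 of 5 cholangiocyte and all 3 red blood cell markers. Their median log2 fold changes were -0.39, -0.04 and -0.07. The 2 neutrophil markers tested had higher estimates (median 0.26). In Mlkl-/- mice the hepatocyte sums overlapped between diets (78790 to 111100 and 80870 to 110200 CPM), as did the macrophage sums (106.9 to 227.8 and 93.4 to 193.7 CPM) and the endothelial sums (99.2 to 159.6 and 82.4 to 102.4 CPM). The stellate and fibroblast sums were apart, lower on HFD (177.6 to 191.3 and 138.6 to 170.5 CPM), and so were the adipocyte sums, higher on HFD (5.57 to 11.7 and 17.7 to 63.8 CPM). All 6 lymphocyte markers had higher and all 5 cholangiocyte markers lower estimates on HFD in these mice. Between the genotypes on HFD, all 8 hepatocyte markers had higher estimates in Mlkl-/- mice (median log2 fold change 0.49). All 9 macrophage, 7 stellate and fibroblast, 6 endothelial and 5 adipocyte markers had lower ones there, with medians of -1.10, -1.01, -0.98 and -1.64. Of the lymphocyte markers 4 of 6 were higher in Mlkl-/- mice (median 0.31), and of the cholangiocyte markers 4 of 5 were lower (median -0.61). Of all these markers, Serpina1c of hepatocytes and Alas2 of red blood cells fell on HFD in wild-type mice, and Gpnmb of macrophages, Lum of fibroblasts and Dnase1l3 of endothelial cells rose. On HFD, Dnase1l3 was lower in Mlkl-/- than in wild-type mice (log2 fold change -1.17 ± 0.15 SE, adjusted p = 0.0166, edgeR). In none of these lists was a marker at 0 in all libraries. In bulk liver, fewer cells of a type and less RNA per cell cannot be told apart, and the part of cell composition in the subunit values was not tested.

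In wild-type mice on HFD the other gene lists of mitochondrial energy metabolism had higher medians than the members. The 14 TCA cycle genes, whose products feed the chain with NADH and succinate, had a median of 0.20 with 12 higher and 2 lower. Cs, the citrate synthase, rose (log2 fold change 0.74 ± 0.16 SE, adjusted p = 0.0209, edgeR). The 2 most abundant, Suclg2 and Fh1, had estimates of 0.40 and -0.58 (adjusted p = 0.131 and 0.0636, edgeR). Of 24 genes for the outer membrane, import and carriers, 12 were higher and 12 lower, and Mfn2, which fuses outer membranes, rose (0.60 ± 0.13 SE, adjusted p = 0.0245, edgeR). None of the 53 assembly factors passed (median -0.01), and none of the 24 genes tested for electron carriers and other ubiquinone enzymes (median -0.03) or of 15 regulators of mitochondrial gene expression (median -0.07). Of the 15 regulators 6 were higher and 9 lower. The 2 most abundant, Gabpa, which binds the ETS letters above, and Yy1, had -0.20 and -0.18 (adjusted p = 0.448 and 0.469, edgeR).

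The lists of ribosomal proteins had negative medians in wild-type mice too. Of 78 mitochondrial ribosomal proteins 63 were lower (median -0.18), and Mrpl24 and Mrps33 of these fell (-0.54 ± 0.13 SE and -0.58 ± 0.16 SE, adjusted p = 0.0305 and 0.0471, edgeR). Of 77 cytosolic ribosomal proteins 76 were lower (median -0.63) and 35 fell. With library size alone as the scale the median of the mitochondrial ribosomal proteins turned to 0.02 and that of the cytosolic ones was -0.43. That scale also moved the assembly factors, the electron carriers, the regulators and the outer membrane, import and carrier genes to medians of 0.18, 0.17, 0.12 and 0.18 in wild-type mice. In the comparison of genotypes on HFD the TCA cycle had a median of 0.03, the assembly factors 0.17, the mitochondrial ribosomal proteins 0.27 and the cytosolic ones 0.37, beside 0.28 for the members. In Mlkl-/- mice none of the 7 lists held a gene that passed. The diet medians there were 0.23 for the TCA cycle, 0.20 for the electron carriers, 0.155 for the assembly factors and 0.10 for the regulators. They were 0.07 for the outer membrane, import and carrier genes, 0.10 for mitochondrial and -0.25 for cytosolic ribosomal proteins, beside 0.13 for the members. Whether the members differ from any of these lists was not tested.

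**Figure D5:**
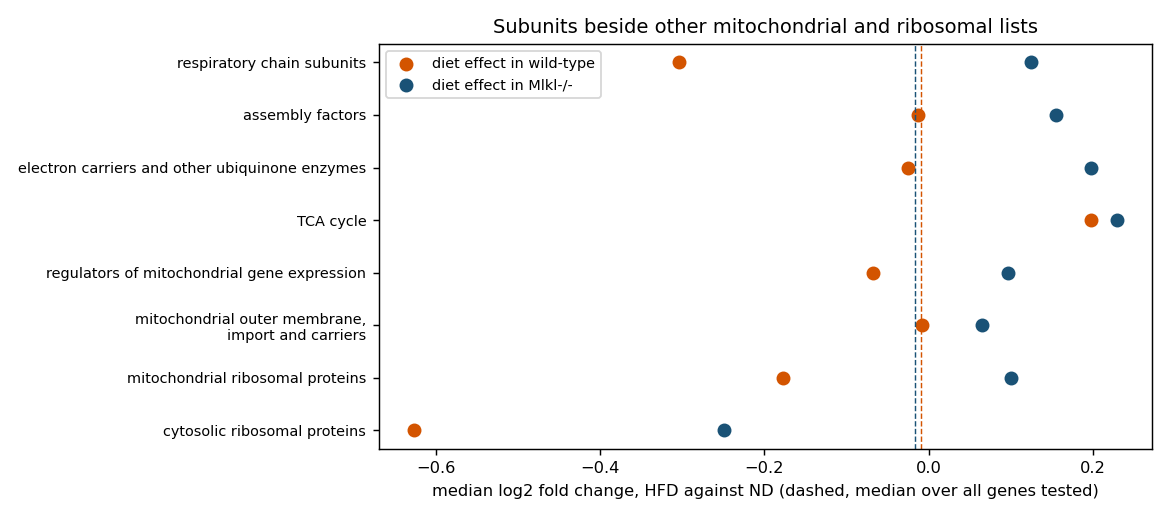
Median log2 fold change of HFD against ND for the 77 subunits and for 7 other gene lists, in wild-type and in Mlkl-/- mice, with the median over all genes tested as dashed lines. In wild-type mice the subunits (-0.30) lie between the mitochondrial ribosomal proteins (-0.18) and the cytosolic ribosomal proteins (-0.63), and the TCA cycle lies above 0 in both genotypes.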

How the data were processed

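Liver RNA of 12 mice was read as 3' mRNA tags (QuantSeq), a method that counts 1 fragment near the end of each transcript, so counts were not divided by gene length. Per the submitters' processing notes the reads were handled with cutadapt 1.9, HISAT2 and featureCounts on mm10, and limma was used. The values used are the raw counts per gene that the authors deposited, with totals of 19435391 to 32120426 per library. The sources used here do not give how reads that match several genes were counted, or whether strand was used. Symbols came from a table of gene identifiers (51633 of 51912 matched), and positions, biotypes and coding lengths from GENCODE M21, for the transcript with the best APPRIS rank and a complete coding sequence. Coding length stands in for protein length, which was planned.

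Genes that passed filterByExpr (18098, all 77 members among them) were fitted once over the 12 libraries with edgeR 4.0.16 (R 4.3.3), by TMM factors and the robust quasi-likelihood test, with 8 residual degrees of freedom. The 6 contrasts were adjusted by Benjamini-Hochberg over all genes tested, and a gene passed at an adjusted p under 0.05. The comparisons share libraries: those of diet and genotype use the same 4 groups. CPM are TMM-scaled, and log2 CPM carry a prior count of 2. Groups are called apart where no value of one lies within the other. P-values weigh a difference between groups against the spread between libraries of a group. That spread is estimated over the 4 groups together and moderated across genes.

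Alternatives were RLE factors, library size alone, no filter beyond 1 count, DESeq2 1.42.0, limma-voom (limma 3.58.1), a term for the level of the title code, a term for the 8-locus level (Mir6236, Gm23935, Gm24270, Gm24187, Gm25911, Gm24245, Gm15564 and Lars2) and leaving out each library. Adding the counts of pseudogene copies to their members was chosen after seeing the data. The members, the other gene lists and the tests were chosen with earlier results of these data known. The text names the members that passed, the highest and lowest of each complex in each diet comparison, a set of core members, tissue isoforms, and of each other list the genes that passed or the most abundant. Other members named beside them, such as those with an unadjusted p under 0.05 or near the threshold, were chosen after their values were seen. The statistics were tested on simulated counts. The values of 1 member are not reported here. RefSeq promoter windows were found for 64 of the 77 members.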

Additional observations from a re-analysis of the deposited data

Results flagged for a closer look

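More than 3 counts were present in all 12 libraries for 9 genes whose symbols match the patterns but which were left out as pseudogenes or as not protein-coding. Their mean levels over the libraries, in CPM of raw library size, were 29.4 for Atp5l2-ps, 18.7 for Atp5l-ps1 and 9.11 for Atp5l-ps2 among the copies of Atp5l, 21.6 for Ndufb1-ps, 35.1 for Ndufb4c, 3.75 for Ndufs6b and 1.11 for Ndufa11b in complex I, 2.57 for Uqcrh-ps1 in complex III and 17.4 for Cox6c2 in complex IV. In wild-type mice on HFD, Atp5l-ps1 and Atp5l2-ps passed the test as lower (log2 fold changes -0.75 and -0.60, edgeR adjusted p = 0.0153 and 0.0456). Whether these counts are reads of the members was not tested.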

How the results depend on the processing

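In wild-type mice on HFD 3 members passed, and this number was 0 with library size alone or with the 8-locus level as a term, 6 with no filter, 7 with DESeq2, and 0 to 6 as each library was left out (0 without any 1 wild-type library or Mlkl-/- ND replicate 2). Averaged over genotypes no member and 1302 genes passed in the main fit. There 3 members and 1980 genes passed with library size alone, 2 and 1947 with DESeq2, and 1 and 1500 with a term for the title code. As each library was left out, 0 to 2 members and 616 to 2029 genes passed in that comparison. In Mlkl-/- mice on HFD these ranges were 0 to 1 members and 13 to 729 genes. With library size alone the wild-type medians of complexes I to V were -0.10, 0.13, -0.16, -0.19 and -0.15, which for complex II turns the direction. The title code as a term left 2 members (Atp5j2 and Atp5l) and 688 of all genes called in the wild-type comparison. Over 47 combinations of member and comparison named in the text and 20 alternatives, no value that passed changed its sign. The call was lost 29 times and gained 19 times, and 892 values kept their side of the threshold. All 29 losses were of Atp5l, Atp5j2 and Cox5b in the wild-type diet comparison, the only 3 combinations that passed in the main fit. Most of the 892 were values that passed neither in the main fit nor in the alternative. Leaving out a library leaves an arm with 2 libraries, and the cause of each lost call was not tested. The lowest member, Atp5s, averaged 5.53 CPM and had an SE of 0.25 in the wild-type diet comparison, and how depth limits the calls was not tested. No paired analysis was possible because the labels give no replicate number shared between groups.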
